A study of Saccharomyces cerevisiae with 12 samples.

Results

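The 3 arrays of wild-type budding yeast (Saccharomyces cerevisiae) at the diauxic shift are described here, chosen by their label as wild type from 12 arrays in all. The other 9 arrays came from strains labelled as deleted for hsp31, hsp32 or hsp33, with 3 arrays per strain, and all 4 groups grew in synthetic complete medium up to the diauxic shift. Total RNA of each sample was labelled with Cy3 and hybridized alone, so each array gives the brightness of every probe in 1 sample. Strain background, mating type and auxotrophic markers are not given in the sources used here, and no label tells if separate cultures were grown for the 3 samples; p-values therefore cover the spread between these samples alone, and part or all of it may be technical. All 6252 gene probes, each for 1 locus, were ranked by level, the background-subtracted intensity averaged over the 2 spots of a probe and quantile normalized over the 3 arrays.

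The diauxic shift is the time at which yeast has used up its glucose, stops fermenting and turns to the ethanol and acetate that fermentation left behind. Growth slows, glucose repression is lifted, and genes for respiration, the glyoxylate cycle, gluconeogenesis, reserve carbohydrates and stress protection are known to be induced. Many steps of central metabolism are encoded by several genes (isozymes) whose members differ in regulation, so that the set of isozymes in use changes with the carbon source.

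The wild-type arrays were alike and mostly above background. To be called above background, a signal had to pass a limit set from 77 negative control spots (their median plus 2 SD), which was 48.7, 47.4 and 45.7 intensity units on replicates 1, 2 and 3. With it 92.1%, 94.6% and 91.4% of the gene probes were above background, as were 4, 10 and 4 of 2696 empty spots. Median foreground was 552, 678.5 and 401 over a local background of 74, 86 and 64, so replicate 3 was the dimmest array. Across 5611 probes above background on all 3 arrays and not saturated, which are not independent replicates, the arrays correlated at r = 0.993 to 0.996. The median SD of log2 level over the 3 arrays was 0.11, and the 95th percentile of the SD was 0.28. Replicate 3 was the array farthest from the other two for 2460 of the 5611 probes. Brightness depends on the probe as well as on the RNA, so the order of different genes below is a description of brightness with no test, and it gives no ratio of transcript numbers.

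**Figure D1:**
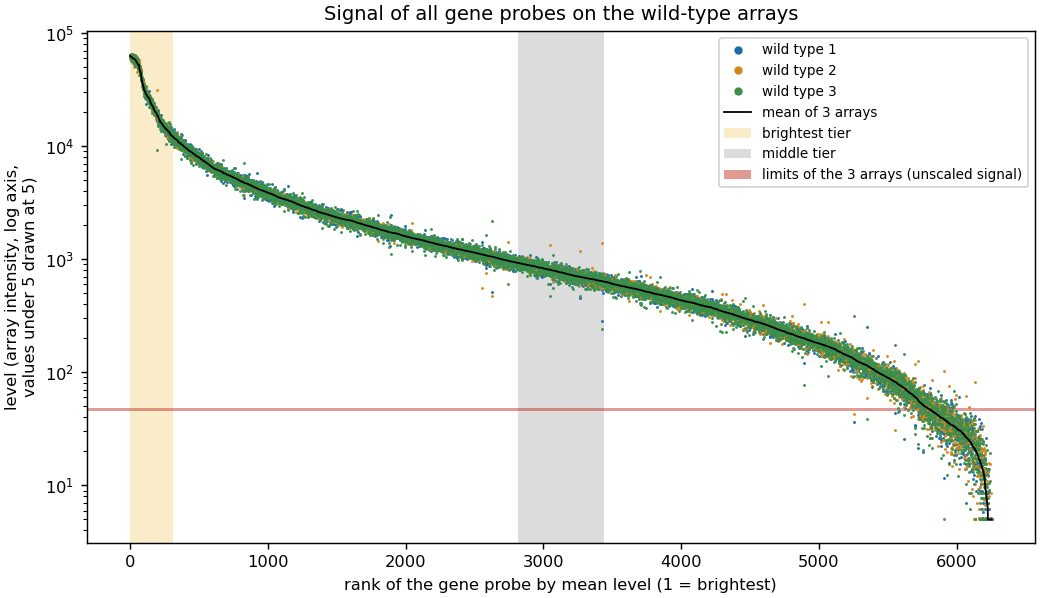
Level of each of the 6252 gene probes (vertical log axis, intensity units, values under 5 drawn at 5) by rank of the mean level (horizontal axis), as 1 point per wild-type array and a black line for the mean. The 3 arrays follow the same curve, flat at the top where probes saturate and steep at the bottom where they pass the limits drawn as a red band (48.7, 47.4 and 45.7).

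The median level was 765, and 5684 probes (90.9%) were above background on all 3 arrays, 91 on 2, 155 on 1 and 322 (5.15%) on none. The brightest 5% held 313 probes with levels of at least 12135, and these carried 50.3% of the summed signal. In that tier 35 probes were saturated on all 3 arrays and 73 on at least 1, meaning that 50% or more of the pixels of a spot were at the scanner's ceiling. For saturated probes the level is a lower bound and their order has no meaning. ACC1 lay just inside the brightest tier at 12135 ± 1253 (SD, n = 3) and ACO1 just outside at 12014 ± 1695 (SD, n = 3). That gap is smaller than the spread between arrays.

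Of the 30 brightest probes with a standard name all were saturated on at least 2 arrays. Since saturated probes have no order, which of them fall among the 30 is in part arbitrary, and the genes are sorted below by known role as a description. PIL1 and LSP1, the core proteins of the eisosomes under the plasma membrane, were among them, as was NCE102, a membrane protein of the same domains. PIL1 read 63747, 63423 and 61167 and LSP1 read 61124, 59048 and 59329. Cell wall proteins SED1, CCW12 and SPI1 had mean levels of 61698, 60443 and 59145. The hexose transporters HXT7 and HXT5, the hexokinase HXK1, the aldehyde dehydrogenases ALD6 and ALD4, the alcohol dehydrogenase ADH1 and the transaldolase homologue NQM1 stood for carbon metabolism. HXT7, a high-affinity transporter known to be repressed by glucose, read 64421, 58792 and 63951.

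CTT1, the cytosolic catalase, read 59857, 63816 and 61874. The small heat shock protein gene HSP26 read 56074, 63747 and 57974, and HSP12, a membrane-associated stress protein, read 63816, 50324 and 62631. The peroxiredoxin AHP1, the metallothionein probe CUP1-2 and the stress-induced HOR7, DDR2 and TMA10 were also saturated on all 3 arrays. Translation was represented by TEF1, an elongation factor, and RPP2B, a protein of the ribosomal stalk. Mitochondria were represented by OLI1, a mitochondrially encoded subunit of ATP synthase, by OM14 and OM45 of the outer membrane, by the carnitine acetyltransferase YAT1 and by RSM7, a protein of the small mitochondrial ribosomal subunit. ASP3-1 and ASP3-4, near-identical copies of the asparaginase II gene known to respond to nitrogen starvation, had mean levels of 59235 and 60427. Signals of such copies cannot be told apart on an array, and the same holds for the CUP1 copies.

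Among probes with no saturated array, where an order can be read, RDL1, a thiosulfate sulfurtransferase, was brightest at 46645, 47556 and 44648. This list was chosen after saturation had been seen. ICL1, isocitrate lyase of the glyoxylate cycle, followed at 45618 ± 4660 (SD, n = 3), the cell wall protein CWP2 at 45433 ± 1569 and TPS1, trehalose-6-phosphate synthase, at 45182 ± 3574. These 4 neighbours do not differ beyond their spread. Also in this list were the glycogen branching enzyme GLC3 at 36917 ± 2079, the glycogen debranching inhibitor IGD1 at 41086 ± 3663 and glycogen synthase GSY2 at 32101 ± 3904. So were 3 vacuolar proteases, PEP4 at 39378 ± 2137, the carboxypeptidase PRC1 at 31213 ± 1580 and the aminopeptidase APE3 at 35661 ± 3111. SOD2, the mitochondrial superoxide dismutase, read 31271, 31158 and 31529, the closest agreement among the 30 named probes of this list.

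Between the 45th and 55th percentile lay 625 probes with levels from 634 to 928, of which 582 had a standard name. Those nearest the median were BET4 (a subunit of the enzyme that prenylates Rab proteins), MRP7 and MRM2 (mitochondrial ribosome and its rRNA methylation), POB3 (a subunit of the FACT chromatin complex), CAB3 (coenzyme A synthesis), MIT1 (a transcriptional regulator), INM2 (inositol monophosphatase), CDC20 (an activator of the anaphase-promoting complex), SMI1 (cell wall synthesis), SEC31 (COPII vesicle coat), ESF1 (18S rRNA maturation) and VPH2 (V-ATPase assembly). Their mean levels ran from 762.9 to 767.3. MRP7 read 777, 789 and 735, and BET4 read 914, 773 and 615. The order within this tier cannot be read, since the SD over arrays, 28.2 for MRP7 and 149.9 for BET4, exceeds the differences between the means.

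Few of the 322 probes above background on none of the wild-type arrays were for named genes: 92 had a standard name. Of the 322, 158 did not match a gene of the reference annotation, which is 31.7% of all unmatched probes against 2.85% of matched probes and 1.76% of probes with a standard name. Their levels ran from -35.8 to 45.2 with a median of 24.9. Genes near chromosome ends were more often dark. Among the first 10 genes from an end 33 of 300 (11%) were undetected, against 13 of 300 (4.33%) for the 11th to 20th gene and 113 of 5118 (2.21%) farther in. COS10 and COS12, of a subtelomeric family and chosen after their values were seen, were undetected. No other COS gene was among the 92 undetected probes with a standard name.

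A dark probe does not show that a transcript is absent. Genes known as essential for growth, such as CDC6 (replication licensing), RAD53 (checkpoint kinase), NOP9 (ribosome biogenesis), RPC17 (RNA polymerase III) and BRN1 (condensin), were also among the undetected. CDC6 read 37.8, 26.9 and 16.7 and BRN1 read 12.3, 13.3 and 7.67, both called undetected on each array. At the edge, SAE2, a DNA end resection factor, was above background on no array at 30, 32.2 and 58.0, while LDS1, a sporulation protein, was counted outside the tier at 30.8, 37.7 and 20.5. The normalized levels of these probes overlap, because the limit was applied to the unscaled signal of each array. The number of undetected probes depends on the limit: with a limit of 2 background SD of each spot's own surroundings it was 2421, and 2304 probes were above background on all 3 arrays.

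The same probes on the deletion arrays show which of these genes could give signal. Of the 322 probes, 46 passed the limit on each of the 3 arrays of some deletion strain, and 92 (28.6%) were above background on none of the 12 arrays. By strain, 40 were in the hsp31 deletion, 4 in the hsp32 deletion and 29 in the hsp33 deletion. On replicate 2 of the hsp32 deletion, CAN1 was not above background at a normalized log2 signal of 8.27. On replicate 1 of that strain, MF(ALPHA)2 was above background at 7.19. The part of a high limit on replicate 2 in the low count of that strain was not tested. Among the 46 probes, URA3 and MF(ALPHA)1 were the 2 with the largest signal, and both are described with the strain markers below. NOP9 had a normalized log2 signal of 7.18 ± 0.17 (SD, n = 3) in wild type and 8.74 ± 0.10 in the hsp32 deletion, at least 2.60-fold higher there. The bound sets the mean of the bright group against, per wild-type array, the higher of the lowest signal above background and the probe's own signal. NOP9, URA3 and MF(ALPHA)1 were picked as undetected in wild type and highest in a deletion, which sets their direction. They entered the limma test through the deletion arrays alone, so no p-value is given for them.

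A few probes varied far more between wild-type arrays than the typical SD of 0.11. ELG1, an alternative clamp loader, read 283, 1398 and 241. On replicate 2 its spots read 3170 and 333 before normalization, so the high value rests on a single spot. SDS3, a subunit of the Rpd3L deacetylase, read 509, 469 and 2184, and its spots on replicate 3 read 2794 and 312. SNU13, a protein of the U3 and U4 ribonucleoproteins, read 603, 1348 and 475, and here the spots of each array agreed, with 1702 and 1693 on replicate 2. DAP1, a heme-binding protein of sterol synthesis, read 881, 1422 and 605, again with spots that agreed within 1.12-fold on each array. AI1, an intron-encoded reverse transcriptase of the mitochondrial genome, read 2470, 1581 and 1119. The other variable probes were SKG6, AST1, TGL5, PHO3 and REV7.

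Gene lists set these tiers in terms of function. Of the 32 general stress and stationary phase genes, 27 were in the brightest tier, which holds 5.01% of all gene probes, and the median percentile of the list was 98.4, against 50 by definition for all probes. CTT1, HOR7 and DDR2 were among 9 members saturated on at least 1 array. GRE3, an aldose reductase, and SIP18, a desiccation protein, were at its lower end with levels of 7169 and 2580, and SSA4, an inducible Hsp70, was at 8420. HSP104, the disaggregase, read 28269, 33449 and 30731. All 32 members were above the median of all probes.

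Genes of respiratory growth were bright but less uniformly so. The 13 genes of the diauxic list had a median percentile of 95.7, with HXT7, HXK1 and ALD4 saturated on all 3 arrays. Genes of peroxisomal fatty acid oxidation were lower, POT1 (thiolase) at 9484, FOX2 (multifunctional enzyme) at 2307 and POX1 (acyl-CoA oxidase) at 1968. They were not alone in this: ADH2 and ACS1, enzymes of ethanol and acetate use, were under POT1 at 3451 and 8008. The 13 genes of the glyoxylate cycle and gluconeogenesis had a median percentile of 92.9. In this list ICL1 and the lactate permease JEN1 (29730, 26586 and 26015) were bright, PCK1, the gluconeogenic carboxykinase, had 5148 ± 649 (SD, n = 3) and MLS1, malate synthase, read 2803, 2329 and 1740. SIP4, a transcription factor of gluconeogenesis, was lowest at 598. For the tricarboxylic acid cycle the median percentile was 95, from CIT1 at 32437 down to KGD1 at 2342, and all 15 genes were above the median of all probes.

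For the respiratory chain and ATP synthase the median percentile was 88.2 over 33 genes. ATP1 and ATP2, the catalytic core of ATP synthase, had 22485 ± 1300 and 19689 ± 2143 (SD, n = 3), and QCR6 of complex III had 17344 ± 67.3. CYC1, the major isoform of cytochrome c in respiring cells, was the only member under the median of all probes, at 260, 302 and 287. Of 16 mitochondrially encoded genes 8 have a probe, with a median percentile of 83.5, from OLI1, saturated, to VAR1 at 609. Replicate 1 was highest for all 7 that were not saturated, for example COX1 at 4394, 2855 and 2737.

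Glycolysis and fermentation genes were bright as a list. The median percentile of the 15 genes was 94.6, with ADH1, PDC1 and TDH1 saturated on at least 1 array and PFK2 lowest at 2278. The gene at the median was ENO1, the enolase of gluconeogenic growth, and TDH1 is the form of stationary cells. ENO2, the enolase of growth on glucose, had 2718. The transporters HXT1 and HXT3, known to be induced by high glucose, had 20282 ± 1317 and 14380 ± 1165 (SD, n = 3), both in the brightest tier. HXK2, the hexokinase of growth on glucose, was lower at 1524, 1481 and 1702, and MIG2, a glucose repressor, had 862.

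Ribosomal proteins and ribosome assembly lay far apart in the ranking. The 9 single-copy genes of the small subunit had a median percentile of 98.3 and the 11 of the large subunit 95.5, with RPS31 at 54276, RPS12 at 44484 and RPL5 at 37407. RPS31 was saturated on 2 wild-type arrays and RPS12 and RPS20 on 1 each, so their levels are lower bounds. Ribosome biogenesis factors, in contrast, were all below the median of all probes: the 15 measured had percentiles from 18.1 to 47.9, among them NSR1 at 700, NOP56 at 661 and GAR1 at 647 at the top and UTP4, NOG1 and MAK5 at 169, 163 and 159 at the bottom. Histones had a median percentile of 95.5 with HHF1 at 37493 and HTB1 at 29219, while HTB2, HHO1 (the linker histone) and HTZ1 (the H2A.Z variant) were at 1389, 1156 and 2547. The probes of the HHT, HHF, HTA and HTB pairs may share signal within each pair.

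Of 24 meiosis and sporulation genes 5 were undetected and none was above the median of all probes: DMC1 and RED1 led at 739 and 708, and SPO77, REC114 and SPS2 were at 15.2, 18.5 and 24.7. The 11 cyclins had a median percentile of 17.3, CLB3 leading at 1301 ± 44.4 (SD, n = 3) and CLB6 undetected at 31.5, 35.3 and 34.3. Galactose genes had a median percentile of 25.7, with GAL80, the repressor, at 1154 and GAL10 undetected at 36.4. The 9 genes of the maltose and sucrose list had a median percentile of 58.7, with 5 above the median of all probes. Within it MAL31, a maltose permease, was bright at 11939, 12664 and 12359 whereas MAL32, the maltase next to it, was undetected at 15.4, 28.0 and 22.0.

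**Figure D2:**
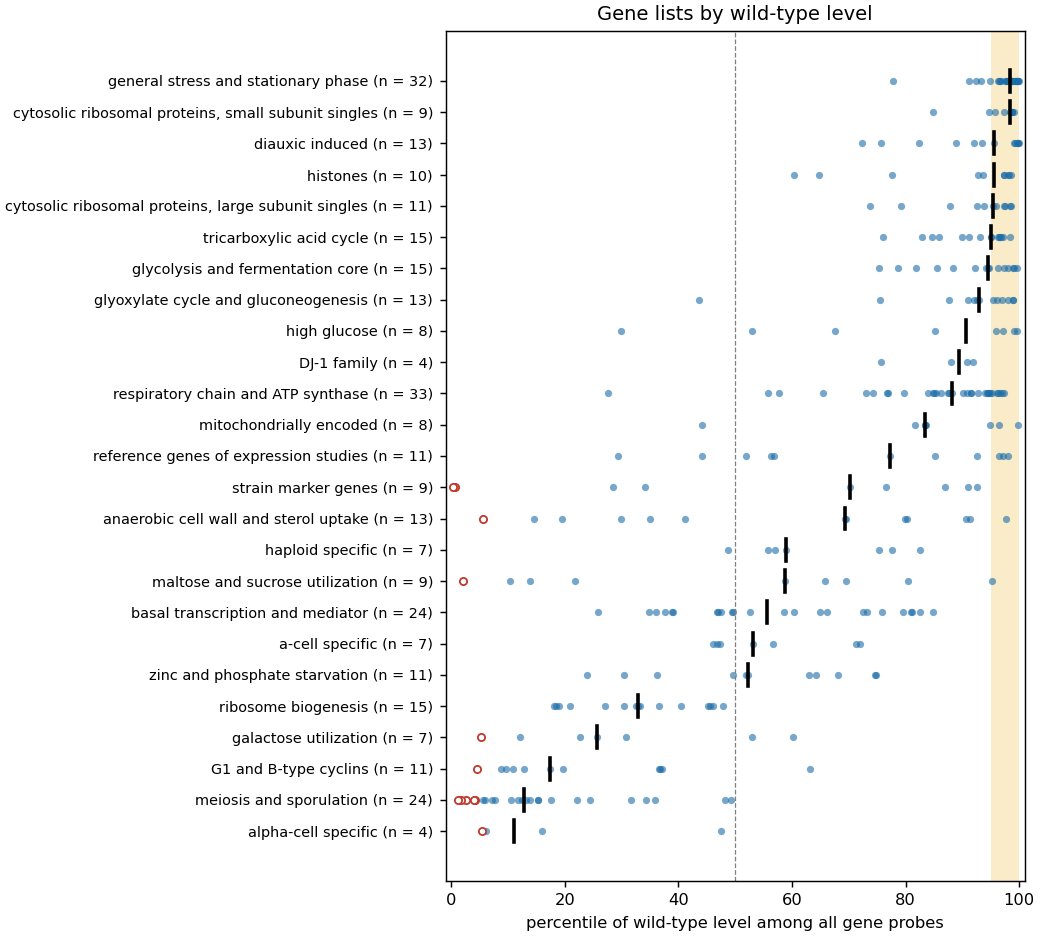
Percentile of wild-type level (horizontal axis, among all 6252 gene probes) for the members of 25 gene lists, 1 point per gene and a black bar at the list's median, with open red points for genes above background on no wild-type array. The yellow band marks the brightest 5%. Stress genes (median 98.4) lie at the right and meiosis genes (median 12.7) at the left.

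Isozyme usage was described for 39 groups with 117 genes. In 34 groups the brightest probe lay above the second on all arrays with no overlap between their values, and in 5 they overlapped. In 4 groups both probes were saturated, among them hexose phosphorylation, which is counted without overlap although its leading order cannot be read. Of the brightest members 27 were in the brightest tier, and 12 were saturated on at least 1 array. Members of a group can be near identical (HXT6 and HXT7, TEF1 and TEF2, TDH2 and TDH3) and their probes may share signal. The choice of the leading member rests on probe brightness.

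For glucose entry and phosphorylation, HXT7, HXT5 and HXT6 were saturated on all 3 arrays and cannot be ordered. HXT2 followed at 28201 ± 1238 (SD, n = 3), then HXT1 and HXT3, while HXT4 was at 1237 ± 53.9. HXT8, HXT13, HXT14 and HXT16 were undetected, and HXT11 was above background on 1 array. HXK1 and GLK1, the enzymes of derepressed cells, were both saturated, at 61310 ± 2307 and 54557 ± 4055, and EMI2, a glucokinase paralogue, had 20046 ± 586. HXK2 was the dimmest of the group at 1569 ± 117.

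In lower glycolysis, TDH1, the glyceraldehyde-3-phosphate dehydrogenase of stationary cells, read 45992, 51616 and 50711 and was saturated on 1 array. TDH3 and TDH2 read 9575, 10332 and 11862, and 5058, 5672 and 5603. ENO1, the enolase of gluconeogenic growth, had 11345 ± 1650 and ENO2, the enolase of growth on glucose, 2718 ± 104 (SD, n = 3). CDC19 was brighter than PYK2, the pyruvate kinase insensitive to fructose-1,6-bisphosphate, at 21483 ± 2377 against 885 ± 83.6. GPM1, the phosphoglycerate mutase, had 15858 ± 1163, GPM2 had 2796 ± 158 and GPM3 was above background on 2 arrays. PFK1 and PFK2, which encode different subunits of the same enzyme, had 3348 ± 299 and 2278 ± 246.

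At the pyruvate and ethanol branch, PDC1 (52600 ± 1821) and ADH1 (59247 ± 3758) were saturated on 2 and 3 arrays. ADH2, the glucose-repressed enzyme that oxidizes ethanol, read 3754, 3348 and 3251, below mitochondrial ADH3 at 7285 ± 283 and ADH5 at 5026 ± 112 (SD, n = 3). ALD6, ALD4 and ALD3 were saturated on at least 1 array, and ALD2 and ALD5 were at 3811 ± 111 and 1774 ± 221. ACS1, the acetyl-CoA synthetase of growth on acetate, read 8587, 8186 and 7251, and ACS2, the enzyme of growth on glucose, read 509, 514 and 435. PYC1 and PYC2, pyruvate carboxylases, were alike at 30586 ± 1164 and 28945 ± 1008, with values that overlapped.

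In the tricarboxylic acid and glyoxylate cycles, the peroxisomal citrate synthase CIT2 read 51090, 57523 and 47556, saturated on 1 array, and mitochondrial CIT1 read 33449, 32917 and 30945. Cytosolic IDP2 had 6830 ± 125 (SD, n = 3), mitochondrial IDP1 4101 ± 397 and peroxisomal IDP3 457 ± 109. All 3 malate dehydrogenases were bright, MDH1 (mitochondrial) at 18755 ± 485, MDH3 (peroxisomal) at 15402 ± 1075 and MDH2 (cytosolic) at 13301 ± 777. The values of the 3 did not overlap, but MDH2 and MDH3 came close, with 14055 as the highest of MDH2 and 14304 as the lowest of MDH3.

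In the pentose phosphate pathway the brightest member was in each case the paralogue known as minor in cells growing on glucose. GND2 read 24702, 27002 and 28069 and GND1 read 4574, 4603 and 4783. TKL2 had 27043 ± 2423 against 2442 ± 168 for TKL1 (SD, n = 3), NQM1 59659 ± 3329 (saturated on 2 arrays) against 3830 ± 148 for TAL1, and SOL4 33829 ± 1464 against 1607 ± 43.6 for SOL3. No pair of these 4 overlapped on any array.

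Mitochondrial pairs also differed in brightness. CYC7, cytochrome c isoform 2, known to be favoured under low oxygen, read 6932, 6770 and 8233, and CYC1 read 260, 302 and 287. COX5B, the hypoxic form of cytochrome oxidase subunit 5, had 24716 ± 939 and COX5A, the aerobic form, 4595 ± 750 (SD, n = 3). The ADP/ATP carriers PET9 and AAC1 had 13191 ± 1256 and 8758 ± 281, and AAC3, the carrier of anaerobic cells, had 50.9 ± 6.13 and was above background on 1 array. ANB1, HEM13 and DAN1, other genes known for expression without oxygen, had 117, 174 and 38.7, the last undetected, while TIR2, a cell wall mannoprotein, had 6586. So the members of the anaerobic list did not share a level, and the list ran from percentile 5.57 to 97.7.

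Reserve carbohydrate and glycerol pairs followed. GSY1 and GSY2 overlapped at 28756 ± 509 and 32101 ± 3904 (SD, n = 3), GLG1 (glycogenin) had 5388 ± 746 and GLG2 1175 ± 41.6, and the trehalases NTH1 and NTH2 had 8866 ± 931 and 4237 ± 254. GPD1, the glycerol-3-phosphate dehydrogenase of osmotic stress, had 20037 ± 139 and GPD2 484 ± 186. GPP2 and GPP1, the phosphatases that follow, had 862 ± 13.5 and 693 ± 39.6.

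For protein folding and redox defence, HSC82 and HSP82, the Hsp90 pair, had 23133 ± 463 and 19633 ± 1886 (SD, n = 3). SSA1 had 14968 ± 1526, SSA4 8420 ± 681, SSA3 5586 ± 382 and SSA2 1155 ± 108. CTT1 was saturated and CTA1, the peroxisomal catalase, had 5690 ± 142. TRX2 read 47556, 46133 and 44076, saturated on 1 array, against 3464 ± 134 for TRX1. GDH3 and GDH2, glutamate dehydrogenases that make and break down glutamate, had 13857 ± 1122 and 10555 ± 988, and GDH1 had 494 ± 37.7. Of the glutathione peroxidases, HYR1 had 9556 ± 293, GPX1 1609 ± 123 and GPX2 289 ± 13.4. Of the fatty acyl-CoA synthetases, FAA1 had 5449 ± 262, FAA4 3289 ± 143, FAA2 2677 ± 207 and FAA3 330.5 ± 17.9.

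**Figure D3:**
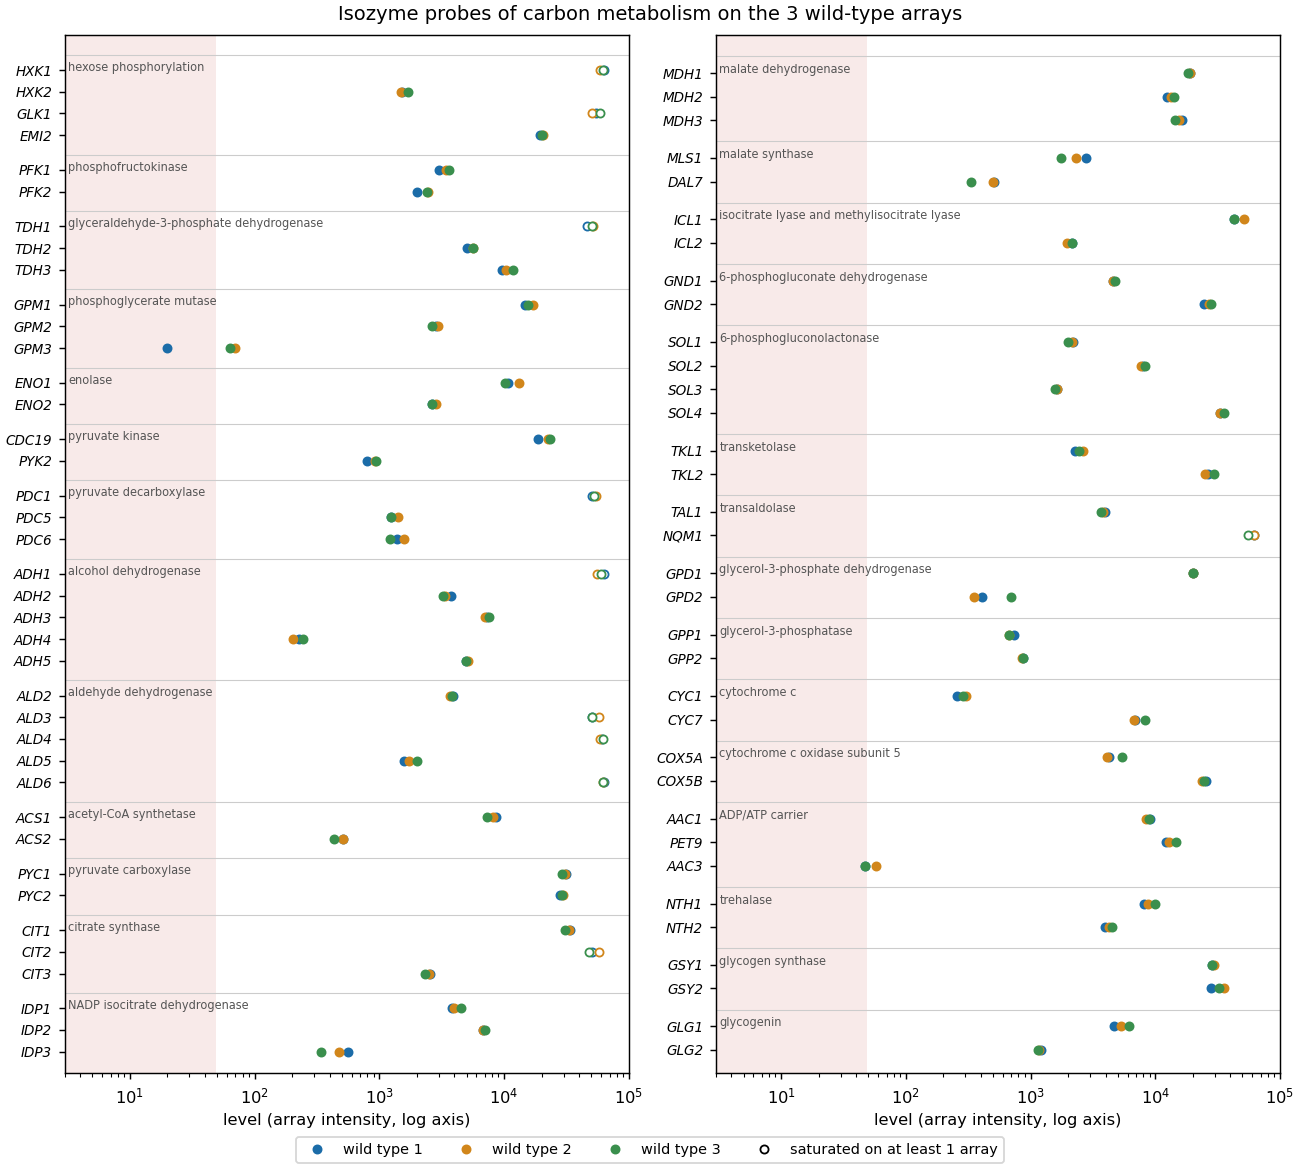
Level (horizontal log axis, intensity units) of isozyme probes of carbon metabolism, grouped by reaction, with 1 point per wild-type array and open points for probes saturated on at least 1 array. The shaded range lies under the highest detection limit. The 3 arrays of a probe lie close together, and GND2, TKL2, SOL4 and CYC7 lie to the right of GND1, TKL1, SOL3 and CYC1 on every array.

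The level of 1 probe can be compared between strains without the limit on comparing probes, so each isozyme was also set against the same probe in the deletions. The comparisons share the wild-type arrays and are not independent. Saturation still limits them: TEF1, TEF2, HXT7 and ALD6 were saturated on all 3 arrays of every group. PDC1, ADH1, ALD4, HXK1, HXT6 and SOD1 were saturated on at least 2 wild-type arrays and at least 1 array of each deletion. Differences of such probes cannot be read, but the probes stay in the counts here and below. In limma over all 12 arrays, with Benjamini-Hochberg adjustment at 0.05 over 5863 genes, 56.1% of all genes differed between wild type and the hsp31 deletion, 70.0% for the hsp32 deletion and 61.4% for the hsp33 deletion. Of 112 isozyme genes tested, 48 were higher and 27 lower in wild type than in the hsp31 deletion, where 30.4% and 25.7% of all genes were. Against the hsp32 deletion 61 were higher and 31 lower (36.7% and 33.3% of all genes), and against the hsp33 deletion 55 were higher and 30 lower (32.4% and 29.0% of all genes). Among all calls 54.2%, 52.4% and 52.8% were higher in wild type, and 38.9%, 38.7% and 38.2% with scaling to the 75th percentile, which shifted the median of all genes to -0.12, -0.17 and -0.15 on the log2 scale.

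The brightest member of each group was chosen on the same wild-type arrays, which favours a higher value in wild type, so counts of its direction are a description and support nothing. Both the brightest and the second member were higher in wild type in 9, 13 and 11 of 39 groups against the hsp31, hsp32 and hsp33 deletions, and both were lower in 2, 2 and 3. The brightest was higher and the second lower in 6, 9 and 7 groups, and the reverse held in 2 groups in each comparison. In the remaining 20, 13 and 16 groups at least 1 of the pair did not pass the threshold. An example of the reverse is phosphoglycerate mutase, where GPM1 was at -0.70, -0.52 and -0.72 and GPM2 at 0.71, 1.44 and 0.95 on the log2 scale.

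GND2 and GND1 moved in opposite directions. GND2 had a normalized log2 signal of 14.33 ± 0.08 (SD, n = 3) in wild type, and its log2 difference was 2.87 ± 0.14 (SE) against hsp31, 3.10 ± 0.14 against hsp32 and 2.71 ± 0.14 against hsp33 deletion arrays. For GND1 the differences were -1.56, -2.92 and -2.17. TKL2 was higher in wild type by 2.86, 4.05 and 3.22 on the log2 scale, and TKL1 was at -1.91, -2.59 and -2.09. CYC7 was higher by 1.39, 2.19 and 1.76, and CYC1 was at -1.12, -1.60 and -1.28. ENO1 was higher by 0.34, 0.41 and 0.47, and ENO2 was at -0.99, -1.41 and -1.33. All of these passed the limma threshold in each comparison, ENO1 with the highest adjusted p (0.013, 0.0030 and 0.0013). GND2, TKL2, CYC7 and ENO1 were chosen as brightest on these same wild-type arrays, which favours a higher value there. The pairs are examples from the groups with opposite directions. Passing the threshold is therefore a description for these pairs and supports nothing further.

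HXK2 and the transporters HXT3 and HXT4 were lower in wild type. HXK2 had 10.66 ± 0.10 (SD, n = 3) in wild type and 13.53 ± 0.07, 13.47 ± 0.09 and 13.59 ± 0.10 in the strains deleted for hsp31, hsp32 and hsp33, a log2 difference of -2.88, -2.82 and -2.93. HXT4, which is not on the high-glucose list, was at -2.67, -2.82 and -2.62. HXT3 was saturated on all 3 arrays of each deletion, where it was at least 4.69-fold, 5.04-fold and 4.94-fold higher than in wild type. Of the 8 genes of the high-glucose list 7 were lower in wild type in each comparison and none higher, where 25.7%, 33.3% and 29.0% of all genes were lower. The medians were -1.08, -1.63 and -1.23 on the log2 scale (5 or 6 of 8 lower with the other scalings, and 1 higher against the hsp32 deletion with median scaling). ADH1 and PDC1 of this list were saturated on arrays of wild type and of each deletion, so their differences cannot be read. Of the 13 diauxic genes 9 were higher in wild type in each comparison and none lower, where 30.4%, 36.7% and 32.4% of all genes were higher. Their medians were 0.86, 1.82 and 1.37, and 6 of the 13 were saturated on at least 1 wild-type array. The ribosome biogenesis genes, all dim in wild type, were lower there in 15 of 15 in each comparison, with medians of -0.81, -1.89 and -1.19. Single-copy ribosomal protein genes, bright in wild type, were also lower there, in 11 of 11 for the large subunit and 9 of 9 for the small. With median scaling these were 9, 10 and 10 of 11, with 1 higher against the hsp31 deletion, and 4, 6 and 6 of 9. RPS31, RPS12 and RPS20 of the small subunit were saturated on arrays of wild type and of each deletion. Their differences cannot be read, although they are in the counts.

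**Figure D4:**
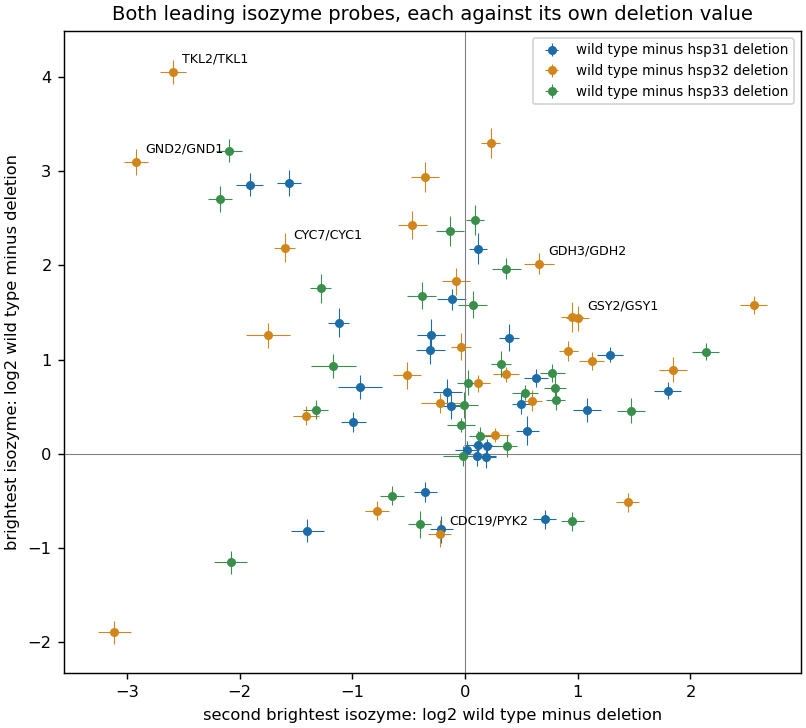
Log2 difference, wild type minus deletion, of the brightest isozyme of a group (vertical axis) against that of the second brightest (horizontal axis), each with its SE, for groups where neither probe was saturated in wild type, in blue, orange and green for the hsp31, hsp32 and hsp33 deletions. GND2/GND1, TKL2/TKL1 and CYC7/CYC1 lie at the upper left, where the brighter probe is higher and the other lower in wild type (names stand at the hsp32 points). The 3 comparisons share the wild-type arrays.

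The labelled gene was checked on the same arrays. HSP31, the methylglyoxalase and chaperone of the DJ-1 family, had 12.65 ± 0.14 (SD, n = 3) in wild type and 6.65 ± 0.15 in the hsp31 deletion, where it was above background on no array. HSP32, HSP33 and SNO4, near-identical subtelomeric paralogues, had signal over the limit on every array of all groups: HSP32 had 12.50 in wild type and 11.40, 10.17 and 11.02 in the strains deleted for hsp31, hsp32 and hsp33, and HSP33 had 11.11 in wild type and 9.89, 8.90 and 9.37. The lowest mean of HSP33 was in the hsp32 deletion, not in its own. Since their probes may share signal, these values do not check the loss of a single copy. In wild type the levels of HSP31, HSP32, SNO4 and HSP33 were 7712 ± 743, 6768 ± 973, 5294 ± 398.5 and 2305 ± 262 (SD, n = 3), percentiles 91.8, 90.8, 88.0 and 75.7.

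Mating type markers bear on how alike the strains are. A cells are known to express the a-factor genes MFA1 and MFA2 and the alpha-factor receptor STE2, and alpha cells MF(ALPHA)1 and the a-factor receptor STE3. All 7 a-cell markers were above background on the 3 wild-type arrays, with MFA1 at 1980, 1844 and 1766, STE6 at 2012, 1839 and 1919 and STE2 at 964, 941 and 1057. Of the 4 alpha-cell markers, MF(ALPHA)1 was undetected at 34.8, 30.8 and 48.0, MF(ALPHA)2 was above background on 1 array, STE3 read 127, 142 and 125, and SAG1 read 702, 706 and 662. The a-cell list was lower in wild type than in the hsp31 and hsp32 deletions in 7 of 7 genes (25.7% and 33.3% of all genes were). The medians were -0.96 and -1.16. Against the hsp33 deletion it was higher in 7 of 7 (32.4% of all genes were), with a median of 1.34. The alpha-cell list was lower in wild type than in the hsp33 deletion in 4 of 4 (29.0% of all genes were), with a median of -2.37. MF(ALPHA)1 and MF(ALPHA)2 of that list entered the test through deletion arrays alone.

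On the arrays labelled hsp33 deletion, MF(ALPHA)1 had a normalized log2 signal of 12.36 ± 0.09 (SD, n = 3), at least 31.9-fold over wild type, and STE3 had 10.52 against 8.11 in wild type. Wild type and hsp33 deletion therefore differed in mating type markers as well as in label, and their part in the other differences was not tested. Strain markers differed too. URA3 was undetected in wild type at 13.2, 8.58 and 4.42 and had 15.14 ± 0.13 in the hsp32 deletion, at least 219-fold higher. LYS2 was undetected in wild type, where LEU2, MET17, TRP1 and ADE2 had 2408, 7023, 4799 and 1767. Of 8 strain markers tested, 3, 5 and 2 were lower in wild type than in the hsp31, hsp32 and hsp33 deletions. Those higher in wild type were 1, 1 and 2. In log2 signal LEU2 had 11.17 in wild type and 12.26, 13.02 and 12.15 in these deletions. MET17 had 12.54 in wild type and 14.16, 14.93 and 14.62. HIS3 had 8.84 in wild type and 9.80, 10.18 and 7.51.

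**Figure D5:**
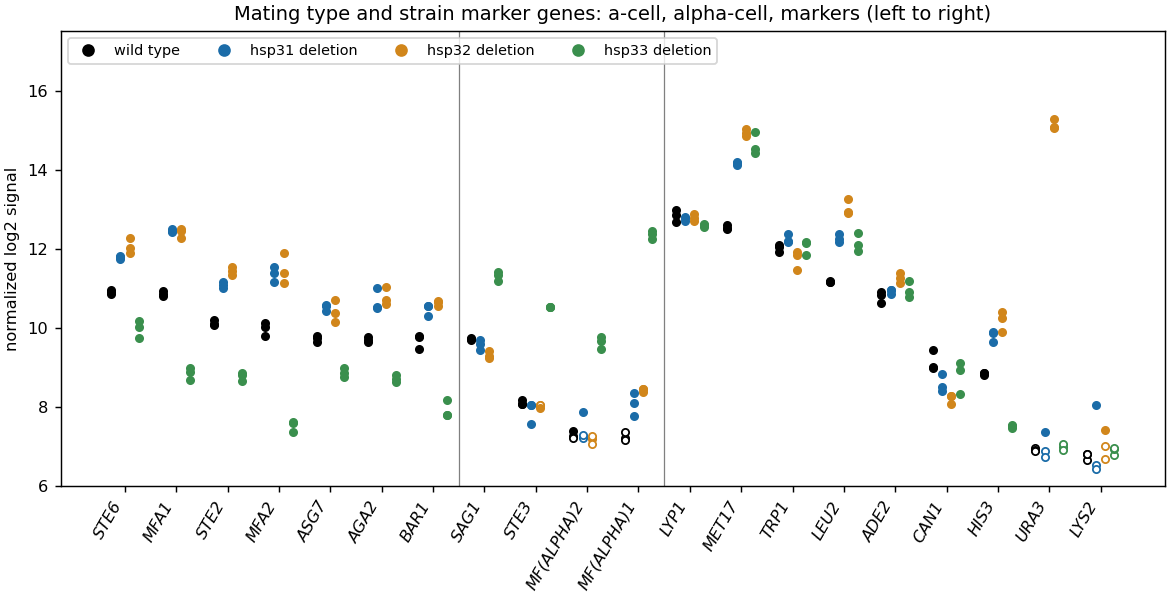
Normalized log2 signal (vertical axis) of the a-cell, alpha-cell and strain marker genes (horizontal axis, left to right) on all 12 arrays, in black for wild type and in blue, orange and green for the hsp31, hsp32 and hsp33 deletions, with open points where the probe was not above background. The alpha-cell genes stand out in the hsp33 deletion and URA3 in the hsp32 deletion.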

How the data were processed

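Cy3-labelled RNA of 12 samples was hybridized to 1 array each, with the Agilent low input labelling kit per the labels' protocols. The deposited scanner files give the foreground and background intensity of 15736 spots, not normalized, and a percent of saturated pixels per spot, as deposited. The authors' series values are an intensity equal to the median foreground in 100% of spots. The scanner, its software and any genome build are not given in the sources used here.

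The level is mean foreground minus median background, averaged over the 2 spots of a probe and quantile normalized over the 3 wild-type arrays. For the comparison with the deletions, normexp with offset 50, quantile normalization over 12 arrays and limma 3.58.1 (R 4.3.3) with 8 residual degrees of freedom were used, tested on simulated data. A gene was tested if some group had it above background on each of its arrays. Loci were named through a reference table (5753 of 6252 matched), used for names and gene order only. No label says if samples with the same number belong together, and no pairing was used. The mean correlation of same-numbered arrays after group means were removed was 0.04, -0.03 and -0.01, with single pairs from -0.42 to 0.29. These values cannot show that samples were not paired. The number of arrays limits the precision.

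Named genes have a standard name and are the 30 brightest, the 12 nearest the median, isozyme members, the 3 highest and 3 lowest of each list, 12 undetected in wild type with the highest level in a deletion, the 10 most variable, and HSP31, HSP32, HSP33 and SNO4; others, named for their role, were chosen after their values were seen. The tiers, lists and isozyme groups were chosen with earlier results of these data known. Members of some isozyme groups are not reported here. Alternatives were other scalings, background corrections, detection limits, blocks and left-out arrays.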

Additional observations from a re-analysis of the deposited data

How the results depend on the processing

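With 3 wild-type arrays and brightness that depends on the probe, only differences well beyond the spread between arrays are readable, and saturated probes have no order. The count of 322 undetected probes became 2421 with a limit of 2 background SD of the spot (2304 of 5684 then above background on all arrays), 134 with no background subtraction and 150 with the authors' series values. A looser or stricter limit of this kind changes the count by its construction. Leaving out each wild-type array gave 328 to 460 undetected probes (460 without replicate 2), 307 to 308 in the brightest tier and 561 to 584 in the middle tier. The same isozyme led in 37 to 39 of 39 groups, and the median of 25 of 25 lists stayed in the same range of percentiles under every setting run. With the median of pixels the lead became -0.0015 on the log2 scale for hexose phosphorylation and -0.0718 for hexose transporters, where the probes are saturated. Some isozymes called lower in wild type than in the hsp31 deletion changed sign with other scalings. PDC1 became 0.0092 and TEF1 0.0043 with scaling to the 75th percentile. With median scaling PDC1 became 0.2133, TEF1 0.2084 and CIT2 0.1964, and TEF1 also changed sign against the hsp32 deletion (0.0536). TEF1 was saturated on all 3 arrays of every group, and PDC1 on 2 wild-type arrays and all 3 of each deletion. CIT2 was saturated on 1 wild-type and 2 hsp31 deletion arrays. Saturation limits the reading of these differences, and its part in the changes was not tested. With the replicate number as a block (replicate block), 1750, 2122 and 1858 genes were higher and 1493, 1936 and 1681 lower in wild type than in the hsp31, hsp32 and hsp33 deletions, against 1783, 2152, 1900, 1507, 1953 and 1700 without it, and 6 of 12 arrays correlated best with their own number. No label gives the slide of an array, so slides were inferred from the position of the spots in the scans. With this inferred slide as a block the counts were 1786, 2106 and 1858 higher and 1493, 1915 and 1657 lower. Within inferred slide 1, an alternative chosen after seeing the data, 2 wild-type and 2 hsp31 deletion arrays gave 1155 higher and 974 lower with fewer samples. There 75 of 75 called isozymes kept their direction. The calls came in part from these same arrays, so that agreement is largely set in advance and is no separate check. The other deletions have 1 array on that slide, so no such fit was made.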
